A study of Mus musculus with 15 samples.

Results

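The fast fibre set described here comprises 10 genes of contraction and relaxation in fast skeletal muscle fibres. They are the myosin heavy chains Myh1, Myh2 and Myh4, the regulatory light chain Mylpf, the troponin subunits Tnnt3, Tnni2 and Tnnc2, the Z-disc protein Actn3, the calcium buffer Pvalb and the calcium pump Atp2a1. The members were chosen by name and found through their Ensembl identifiers, and all 10 were among the 50686 genes of the table. All 10 also passed the filter on low values, a mean normalized count of at least 10 over the 15 libraries, which left 13499 genes for testing.

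A muscle contracts when calcium, released inside the fibre, binds the troponin complex on the thin filament and lets myosin heads pull on actin. The heavy chain isoform is the usual label of a fibre: Myh7 marks slow type I fibres, Myh2 fast oxidative type IIa, Myh1 type IIx, and Myh4 type IIb, the fastest and most glycolytic type. The mouse quadriceps is mostly a fast muscle, and endurance training is classically linked to a move from IIb toward IIx and IIa.

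The RNA came from quadriceps of C57BL/6 offspring at 10 months of age, with 5 groups of 3 libraries. In the control group both parents ate normal chow and the pregnant dam was sedentary. In the maternal sedentary and maternal exercised groups the mother had eaten a 60% high-fat diet for 6 weeks from 8 weeks of age, was mated with a lean male 14 weeks old, and lived through pregnancy with a locked or a free running wheel. In the paternal sedentary and paternal exercised groups the father had the same diet for the same time from the same age, and the lean dam, 14 weeks old at mating, had the locked or the free wheel. All offspring, in every group, ate chow and were sedentary from the day after birth, so the exercise was that of the dam. The controls served both the maternal and the paternal arm, so comparisons against control share these 3 libraries. The labels name no dam or litter for an offspring and no sex. Whether libraries of a group come from separate litters is therefore not known, and p-values measure only the spread between these libraries. The sample codes have no stated meaning. By their first part, all 3 maternal sedentary libraries carried F7, the maternal exercised ones F3, F5 and F7, and the controls F1, F1 and F6. Code and group therefore cannot be told apart in maternal sedentary against control. Control replicates 1 and 2, and maternal sedentary replicates 2 and 3, share the second part of their code as well.

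Libraries held 18457663 to 26981745 reads assigned to genes. Fewest genes had a read in maternal sedentary replicate 3 (17581) and control replicate 2 (17699), and the 13 remaining libraries had 19062 to 20771. Defining skeletal muscle genes (8, among them Acta1 and Ckm) summed to 84299 to 102817 CPM (reads scaled to the library total) in every library. Transcripts of 10 hepatocyte genes summed to 0.368 to 3195 CPM. They were highest in maternal sedentary replicate 2, and reached 369 in the median library of that group, 185 in 1 paternal sedentary and 124 in 1 control library, against at most 24.0 in the exercised groups. Transcripts of 4 fibroblast genes ranged from 163 to 1179 CPM and were highest in maternal exercised replicate 3. Of 4 heart muscle genes, only Myh6 was abundant enough to be tested, and Nppb had no read in 14 of the 15 libraries. The part of these other tissues in the members' values was not tested, apart from the fits without such libraries given below.

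The 3 fast heavy chain genes sit side by side on mouse chromosome 11 (GRCm38), all on the plus strand: Myh2 at chr11:67171027-67197517, Myh1 at chr11:67200052-67224575 and Myh4 at chr11:67238029-67260446. Embryonic Myh3 precedes them, and perinatal Myh8 and extraocular Myh13 follow. Since the results below turn on the balance of these neighbours, the 300 bases around each start are shown. They run from 250 bases before to 50 bases after the start that RefSeq gives (GRCm38.p6), at chr11:67170777-67171076 for Myh2, chr11:67199852-67200151 for Myh1 and chr11:67237562-67237861 for Myh4. The RefSeq starts of Myh1 and Myh4 differ from the gene starts given above, and the Myh4 window ends before its gene start (67238029). Capitals mark a run of 20 bases that all 3 share and every TATAAA on either strand (written TTTATA when on the minus strand).
Myh2: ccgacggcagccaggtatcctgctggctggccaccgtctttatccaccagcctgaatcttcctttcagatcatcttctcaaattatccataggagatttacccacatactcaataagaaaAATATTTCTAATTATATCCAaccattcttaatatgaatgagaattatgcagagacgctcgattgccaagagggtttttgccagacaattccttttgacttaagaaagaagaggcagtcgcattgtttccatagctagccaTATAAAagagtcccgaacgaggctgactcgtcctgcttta
Myh1: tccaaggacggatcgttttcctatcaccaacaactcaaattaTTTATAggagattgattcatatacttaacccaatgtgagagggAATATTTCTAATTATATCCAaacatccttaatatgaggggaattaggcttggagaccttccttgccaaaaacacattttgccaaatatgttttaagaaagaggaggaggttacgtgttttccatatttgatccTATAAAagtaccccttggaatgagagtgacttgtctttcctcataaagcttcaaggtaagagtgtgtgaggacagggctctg
Myh4: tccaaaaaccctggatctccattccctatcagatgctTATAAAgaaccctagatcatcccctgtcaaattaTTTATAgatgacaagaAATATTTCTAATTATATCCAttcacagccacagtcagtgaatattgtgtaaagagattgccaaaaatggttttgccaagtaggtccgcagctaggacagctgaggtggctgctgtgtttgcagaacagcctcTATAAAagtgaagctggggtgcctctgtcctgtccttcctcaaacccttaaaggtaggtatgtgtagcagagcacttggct

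The shared run begins at offset -130 in Myh2, -165 in Myh1 and -163 in Myh4, counted from the RefSeq start. It occurred in 3 of 32851 promoter windows, which are these 3. A TATAAA lies at offset -32 in Myh1 and -31 in Myh4, and at offset 10 in Myh2, with further copies at -208 in Myh1 and at -213 and -179 in Myh4. It was found in 13.6% of all windows. The E-box letters CANNTG, the site bound by myogenic factors such as MyoD, were searched on both strands; the window of Myh4 holds 3, and those of Myh1 and Myh2 hold 0, against 72.3% of all windows with at least 1. The MEF2 motif, searched by its consensus and overlapping TATA-like letters, was found once each in Myh1, Myh4 and Pvalb (3.19% of all windows), and the CArG box of serum response factor in Myh4 alone of the members (1.63% of all windows). RefSeq windows were matched for 7 of the 10 members. A match is a description of letters, not of binding.

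The coding sequences of the fast heavy chains are nearly alike, which bears on how reads of 100 bases are assigned. Myh1 and Myh2 were identical at 91.1% of aligned coding bases, Myh1 and Myh4 at 90.2%, and Myh2 and Myh4 at 88.2%, whereas each shared 77.4% to 77.8% with slow Myh7. The longest stretch common to Myh1 and Myh2, 268 bases, exceeds the read length and is shown for that reason. It spans exons 23 and 24 of both genes (plus strand, GRCm38): chr11:67213219-67213451 and chr11:67213563-67213597 in Myh1, chr11:67188318-67188550 and chr11:67188662-67188696 in Myh2. All of its bases are shared, so none is in capitals.
Myh1 and Myh2: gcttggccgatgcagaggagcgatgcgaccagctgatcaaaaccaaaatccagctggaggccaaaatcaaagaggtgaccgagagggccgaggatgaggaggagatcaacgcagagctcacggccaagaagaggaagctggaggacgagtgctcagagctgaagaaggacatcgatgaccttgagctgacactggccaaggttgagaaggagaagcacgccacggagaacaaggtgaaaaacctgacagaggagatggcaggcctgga

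Of the 5982 positions at which a 100-base read could begin on the Myh1 transcript, 454 (7.59%) gave a read also present in Myh2 and 133 (2.22%) one present in Myh4. For Myh4 the shared positions were 2.25% with Myh1, 1.20% with Myh2 and 1.47% with Myh8. The counting of reads that match several genes is not stated. The less abundant members of this family, Myh1 and Myh2, carry this uncertainty beside the very abundant Myh4.

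Fast fibre transcripts dominated the muscle. The 10 members took 17.3% of all reads in paternal sedentary replicate 1 (95% Wilson interval 17.24 to 17.27) and up to 24.6% in control replicate 1 (24.55 to 24.59). These intervals cover counting error only, since reads without molecular identifiers are not independent molecules. Myh4 was the most abundant gene of the whole table, at 7.76% to 12.9% of reads. Atp2a1 ranked second with a mean of 4.21%, Tnnt3 the fourth with 2.17% and Actn3 the ninth. In share of all reads the group means of the set were 21.8% ± 2.76 (SD, n = 3) in control, 21.7% ± 1.46 in maternal sedentary, 19.8% ± 1.84 in maternal exercised, 19.5% ± 1.95 in paternal sedentary and 21.1% ± 1.53 in paternal exercised. The largest gap between these means, control over paternal sedentary, was smaller than the control SD.

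Per length, in RPKM (reads scaled to the length of the merged exons and to the total of the library), the order of the median levels was Myh4 (16602), Tnnt3 (13274), Atp2a1 (12337), Mylpf (7725), Tnni2 (5174), Pvalb (5134), Actn3 (5020), Myh1 (544), Myh2 (402) and Tnnc2 (3.34). Myh4 exceeded Tnnt3 in 13 of 15 libraries and Tnnt3 exceeded Atp2a1 in 12. On this scale Tnni2, Pvalb and Actn3 could not be ordered: each exceeded the next in 7 of 15 libraries. Myh1 lay above Myh2 in 14 of 15 libraries although their ranges overlapped. Only 3 steps in this order separated the full ranges of neighbours: Mylpf above Tnni2, Actn3 above Myh1 and Myh2 above Tnnc2. The order depends on the length used. Merged exons were 1062 bases for Mylpf, 1497 for Tnni2, 1583 for Tnnt3, 6353 for Myh1 and 7137 for Myh2. The transcript with the longest coding sequence had 766, 668, 1079, 6081 and 6083 bases, while for Myh4 both lengths were 6016. The steps from Mylpf to Tnni2 and from Myh1 to Myh2 are thus given for merged exons only, as are the heavy chain ratios below. The order per transcript length was not examined. The slow heavy chain Myh7 had a median of 140 RPKM, below Myh2, and a wide range of 18.4 to 212.

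**Figure D1:**
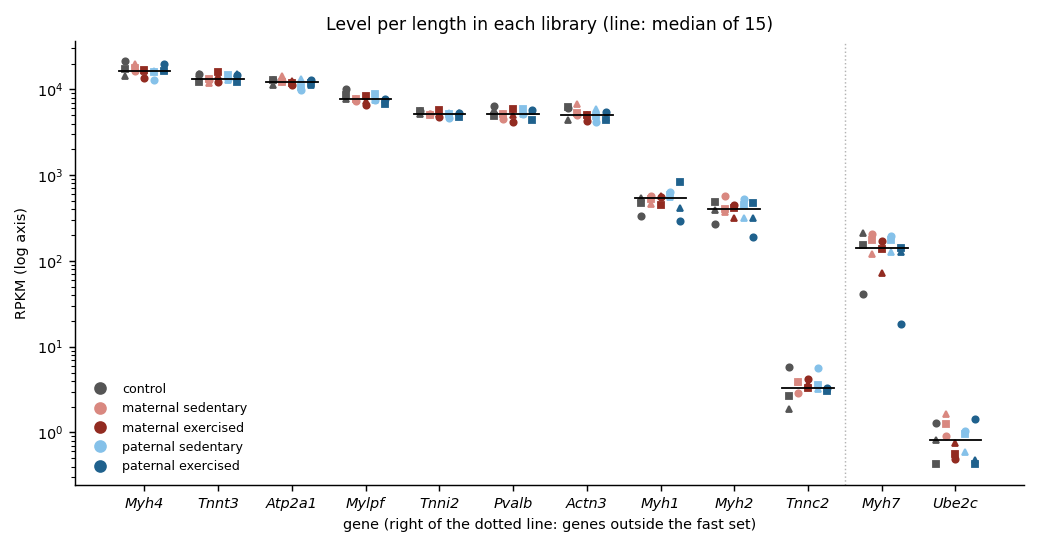
RPKM (log axis) of the 10 fast fibre genes, ordered by median, and of Myh7 and Ube2c, with 1 point per library coloured by group and a line at the median of 15 libraries. The other 9 members lie at medians of 402 or more, and Tnnc2 lies at 3.34.

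Tnnc2, the calcium-binding subunit of the fast troponin complex, stood apart from its partners. It was counted at 31.2 to 115 normalized counts per library, against 139797 to 206723 for Tnni2, the inhibitory subunit, and per length Tnni2 was 822 to 2782 times higher (median 1570). Both extremes of Tnnc2 were controls: replicate 3 had 35 reads (95% exact Poisson interval 24.4 to 48.7) and replicate 1 had 113 (93.1 to 136). In the annotation Tnnc2 (chr2:164777161-164779967, minus strand) overlaps Ube2c, a ubiquitin-conjugating enzyme of the cell cycle, on the plus strand. Of the 700 bases of the Tnnc2 transcript, 592 (84.6%) lie in Ube2c exons, and 0 of 601 read positions are free of them. Ube2c itself had 24.7 to 105 normalized counts. The library kit marks strand, but no source used here says whether the counting used it, and the part of this overlap in the level of Tnnc2 was not tested. Its values are printed below with that limit. Atp2a1 overlaps Rabep2 on the other strand over 21.9% of its transcript, with 74.5% of read positions free of the overlap. Myh1 overlaps the antisense transcript Myhas over 8.47% and Myh2 the antisense transcript 9430073C21Rik over 3.90%, whereas Myh4, Mylpf, Tnnt3, Tnni2, Actn3 and Pvalb overlap no other gene's exons. Tnni2 (chr7:142441808-142444410) and Tnnt3 (chr7:142498836-142516009), the tropomyosin-binding subunit, lie near each other on the plus strand. Mylpf is at chr7:127208890-127214298 (plus), Atp2a1 at chr7:126445858-126463108, Actn3 at chr19:4861216-4877909 and Pvalb at chr15:78191114-78206400 (all minus).

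The heavy chains were taken first, library by library, in normalized counts (reads divided by the authors' size factor of each library). Myh4, the IIb chain, was at 3211612, 2457179 and 1821152 in the controls, 2261833, 2392496 and 2912697 in maternal sedentary, 1664933, 2264180 and 2210024 in maternal exercised, 1546128, 2115407 and 2249289 in paternal sedentary, and 2880306, 2238490 and 2194269 in paternal exercised offspring. The highest value of all was that of control replicate 1, and every pair of compared groups overlapped.

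Myh1, the IIx chain, was at 52514, 70266 and 72356 in control, 84009, 75089 and 71854 in maternal sedentary, 73326, 63092 and 81978 in maternal exercised, 80472, 80513 and 81029 in paternal sedentary, and 44696, 118467 and 57469 in paternal exercised libraries. Its lowest and highest values were thus both in the paternal exercised group, whose SD of 39425 contrasts with 310 in the paternal sedentary group. The very small SD holds for this scaling only. In RPKM the SD was 39.7 around a mean of 592 in paternal sedentary and 284 around 512 in paternal exercised libraries. The 3 paternal sedentary values lay above all 3 controls, and no other compared pair of groups separated.

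Myh2, the IIa chain, was at 48417, 82086 and 59093 in control, 92698, 65048 and 65989 in maternal sedentary, 65228, 66698 and 51846 in maternal exercised, 74721, 68949 and 51673 in paternal sedentary, and 33161, 76013 and 48699 in paternal exercised libraries. The lowest value, as for Myh1, was paternal exercised replicate 1, and every pair of compared groups overlapped.

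**Figure D2:**
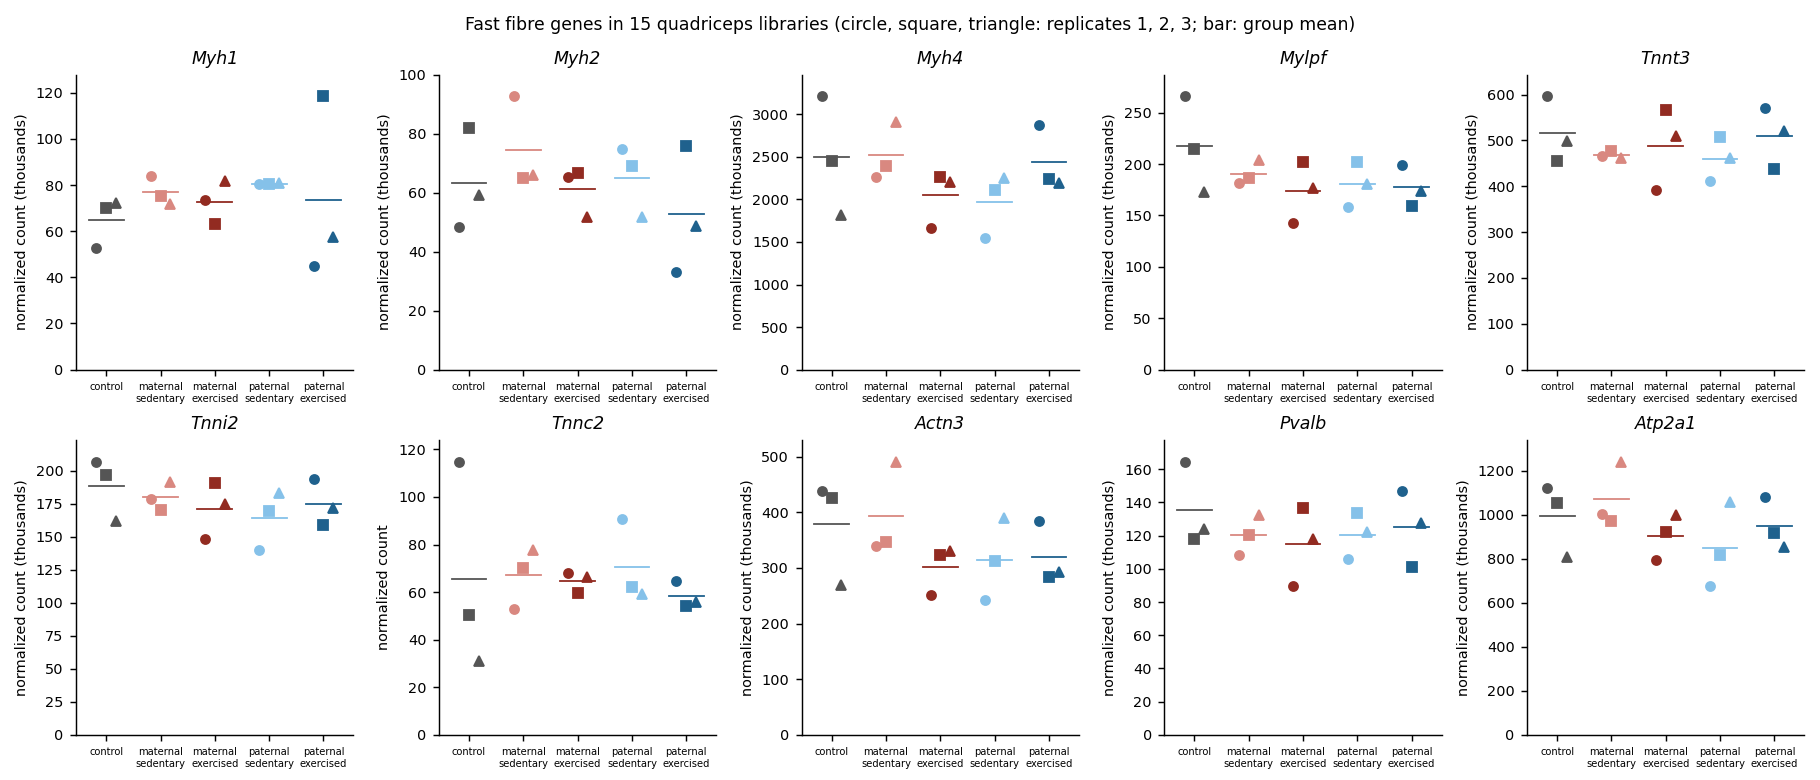
Normalized counts of each fast fibre gene in the 15 libraries (the axis of every gene but Tnnc2 is scaled down as labelled), with circles, squares and triangles for replicates 1, 2 and 3 of each group and a bar at the group mean. Control replicate 1 is the highest library for 6 of the 10 genes. In the compared pairs of groups the ranges overlap except for Myh1 in paternal sedentary over control and Actn3 in maternal exercised under maternal sedentary. Pairs of groups that were not compared can also lie apart, as Myh4 does in paternal sedentary (at most 2249289) and maternal sedentary (at least 2261833).

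The balance of the 3 chains was strongly toward Myh4 in every animal. Per length, Myh4 made up 91.7% to 97.6% of the summed heavy chains (median 94.8%), Myh1 1.43% to 4.65% (median 3.24%) and Myh2 0.947% to 3.74% (median 2.36%). The mean share of Myh4 was 95.3% ± 1.74 (SD, n = 3) in control, 94.8% ± 1.23 in maternal sedentary, 94.3% ± 1.12 in maternal exercised, 93.6% ± 1.64 in paternal sedentary and 95.4% ± 2.49 in paternal exercised offspring. Myh1 took 2.54% ± 1.01, 2.78% ± 0.525, 3.24% ± 0.690, 3.72% ± 0.702 and 2.82% ± 1.65 in the same order of groups, and Myh2 took 2.16% ± 0.800, 2.41% ± 0.728, 2.44% ± 0.603, 2.72% ± 0.957 and 1.80% ± 0.853. The reads behind these shares were at least 29215 per gene and library. Counting error is therefore far smaller than the spread between libraries.

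The ratio of Myh4 to Myh1 per length was 64.6, 36.9 and 26.6 in the controls, 28.4, 33.6 and 42.8 in maternal sedentary, 24.0, 37.9 and 28.5 in maternal exercised, 20.3, 27.7 and 29.3 in paternal sedentary, and 68.1, 19.95 and 40.3 in paternal exercised libraries. The paternal exercised group thus held both the highest and the lowest of the 15 ratios. Over the 5 groups an exact permutation test (F statistic of the log2 ratios over all 1401400 partitions of the 15 libraries) gave p = 0.598. For Myh2 to Myh1, which ranged from 0.563 to 1.04 (median 0.771), the exact p was 0.409, and for Myh4 to Myh2, which ranged from 24.5 to 103 (median 40.3), it was 0.651. Adjusted over the 3 ratios each p was 0.651. None of the 3 ratios separated any of the 6 compared pairs of groups. A pair of groups of 3 cannot give an exact p below 0.1, so pairs were compared by their values alone.

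**Figure D3:**
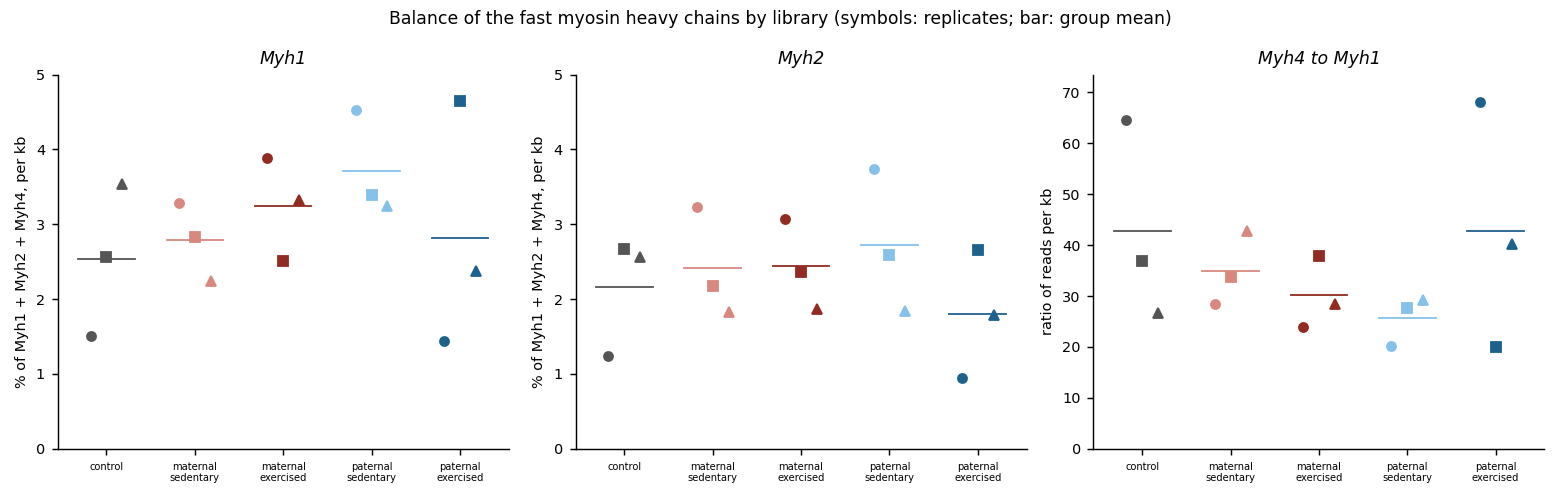
Share of Myh1 and of Myh2 in the summed reads per kilobase of Myh1, Myh2 and Myh4, and ratio of Myh4 to Myh1 per kilobase, in each library (circle, square and triangle for replicates 1, 2 and 3; bar at the group mean). The Myh4 to Myh1 ratio spans 19.95 to 68.1 within the paternal exercised group alone.

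Across the 5 groups no member differed by the moderated F test of limma with Benjamini-Hochberg adjustment over all 13499 genes. The lowest adjusted p among the members was 0.763, with the lowest unadjusted p for Myh2 (0.375), and 0% of all genes passed at 0.05. The same held in each of the 6 comparisons of groups and in the comparison of the exercise effect between arms: 0 of 10 members and 0% of 13499 genes passed in limma, and 0 members had an unadjusted p under 0.05. edgeR, limma voom and DESeq2 on the recovered reads also called 0 members in all 8 tests. In those tools 1 member reached an unadjusted p under 0.05 in 1 test, Myh4 in the comparison of the arms by DESeq2 (adjusted p = 0.999). Over all genes, limma found 906 with an unadjusted p under 0.05 across the 5 groups, while DESeq2 called 186 there, none of them a member. In the 6 comparisons, in the order given below, DESeq2 called 18, 60, 0, 0, 1 and 67 genes, again none a member, and edgeR and voom called 0. The genes with an unadjusted p under 0.05 in limma numbered 546, 1288, 1183, 387, 508 and 1850 in that order, and 243 in the comparison of the arms. Standard errors of the members' pairwise log2 differences were 0.16 to 0.35, which bounds what 3 libraries per group could show.

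Maternal high-fat diet with a sedentary pregnancy was compared with control first. Here and below, a higher or lower mean is a mean of log2 values, which can differ in sign from that of the counts where 1 library is far out, as for Tnnc2. The log2 means of 6 members were higher and of 4 lower, from -0.17 for Mylpf to 0.25 for Myh1 on the log2 scale (fitted difference of log2(normalized count + 1)). The higher ones included all 3 heavy chains, and the lower ones the light chain Mylpf, the troponins Tnnt3 and Tnni2 and the calcium buffer Pvalb. The members' median was 0.06, against 0.01 for all tested genes. The members' adjusted p was 1.00 (limma, Benjamini-Hochberg). No member had 3 values clear of the controls, against 4.44% of all genes higher and 3.58% lower without overlap. The median turned below 0 without control replicate 3 (-0.16), without maternal sedentary replicate 3 (-0.08), and without the libraries rich in hepatocyte transcripts (-0.07) or low in detected genes (-0.03).

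In offspring of exercised against sedentary high-fat-fed mothers, 9 of the 10 members had lower log2 means and Tnnt3 alone a higher one. None passed the test. Actn3, alpha-actinin-3, which anchors thin filaments at the Z-disc of fast fibres, was at 251638, 322936 and 330086 in maternal exercised and at 339561, 347112 and 490973 in maternal sedentary offspring. All 3 exercised values lay below all 3 sedentary ones. The log2 difference was -0.37 with an SE of 0.24 (limma, adjusted p = 0.560). It was the lowest of the members' differences, which reached 0.05 for Tnnt3, with a median of -0.12 against 0.00 for all genes. Over all genes 8.61% were lower and 8.56% higher without overlap, so 1 of 10 members is close to the background. Maternal sedentary replicates 2 and 3 carried hepatocyte transcripts: without the 4 libraries richest in them the difference of Actn3 was -0.18, and without maternal sedentary replicate 3 alone, the library with the fewest detected genes, it was -0.20. The members' median stayed below 0 under the alternatives, from -0.24 to -0.01.

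Against control, the offspring of exercised high-fat-fed mothers had higher log2 means for Myh1 and Tnnc2 and lower ones for the other 8 members. For Tnnc2 the sign is that of the log scale: its mean counts were 64.7 ± 4.60 (SD, n = 3) against 65.5 ± 43.8 in control. Differences ran from -0.32 for Mylpf, the light chain that binds at the lever arm of the fast myosins, to 0.19 for Tnnc2. The median was -0.13, against 0.02 for all genes. The value for Mylpf had the lowest unadjusted p of any member in the 6 comparisons (limma, adjusted p = 0.611). No member separated the groups, against 5.54% of all genes higher and 4.72% lower without overlap. Schwann cell genes (5 of 5, median log2 difference -0.81) and smooth muscle genes (4 of 4, median -0.46) were also lower here, with 0 passing. Their part in the members' values was not tested. All genes of both lists were lower in every comparison against control, with medians of -0.39 and -0.38 in maternal sedentary offspring. Both summed levels were highest in control replicate 2 (323 and 185 CPM), a library that these comparisons share.

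In the paternal arm, offspring of high-fat-fed fathers with sedentary dams had more Myh1 than any control in all 3 libraries. The group mean was 80671 ± 310 (SD, n = 3) against 65045 ± 10903 in the controls, or 592 ± 39.7 against 450 ± 107 in RPKM. The log2 difference was 0.33 with an SE of 0.26 (limma, adjusted p = 0.920; unadjusted p = 0.230). The log2 means of Myh2 and Tnnc2 were also higher, and those of the other 7 members were lower, down to -0.32 for Myh4, with a median of -0.18 against 0.01 for all genes. Over all genes 2.64% were higher and 3.05% lower than control without overlap. Markers of other cells moved in the same comparison, with 0 passing: 5 of 5 red blood cell genes were lower (median -1.09; summed level 33.1 to 65.1 CPM against 53.5 to 128 in control), as were 5 of 5 Schwann cell genes (median -0.65; 122 to 184 against 137 to 323 CPM). Their part in the values of Myh1 was not tested. Without control replicate 1 the Myh1 difference was 0.18, and with the first part of the sample code as a covariate it was -0.95 (limma, adjusted p = 0.947). No code held libraries of both groups: the controls carried F1, F1 and F6, and the paternal sedentary libraries F2, F2 and F4. The value of -0.95 is therefore indirect. It passes through the paternal exercised libraries, which carried F1, F2 and F6. Of these only replicate 2 carried F2, the code shared with paternal sedentary libraries, and it had the highest Myh1 of all libraries (118467).

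With exercised against sedentary dams in the paternal arm, the IIa and IIx chains had lower log2 means and the IIb chain a higher one: differences ran from -0.37 for Myh2 to 0.31 for Myh4. Paternal exercised replicate 1 weighs on this pattern. It had the lowest Myh1 (44696) and Myh2 (33161) of all libraries and the highest Myh4 of its group (2880306), whereas replicate 2 had the highest Myh1 of all (118467). The differences of the single chains without replicate 1 were not followed. Of the 10 members 6 had higher log2 means, among them Atp2a1, the SERCA1 pump that returns calcium to its store, and Pvalb, which takes up calcium in the cytosol during relaxation. The median was 0.04, against 0.01 for all genes, and the lowest unadjusted p was that of Myh2 (limma, adjusted p = 0.991). No member separated the groups, against 5.11% of all genes higher and 5.5% lower without overlap. The median turned below 0 without paternal sedentary replicate 1 or the libraries rich in hepatocyte transcripts (-0.05 each), with total read scaling (-0.04) and without paternal exercised replicate 1 (-0.03). With total read scaling the median of all genes was -0.08, so relative to all genes the members stayed above. The 5 red blood cell genes were all higher here (median 1.09, summed level 65.1 to 135 CPM, 0 passed), and their part was not tested.

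Paternal exercised offspring were then compared with control. The differences ran from -0.31 for Myh2 to 0.06 for Myh1, with 8 of 10 log2 means lower and a median of -0.08 against 0.00 for all genes. By mean counts 9 were lower, since Tnnc2 had 58.3 ± 5.61 (SD, n = 3) against 65.5 ± 43.8 in control. With the sample code as a covariate the median was 0.01. The lowest p of a member was that of Mylpf (limma, adjusted p = 0.481). No member separated these groups. This was the comparison with the most genes apart, 11.7% of all genes higher and 8.7% lower without overlap. Genes of Schwann cells (5 of 5, median -0.81) and smooth muscle (4 of 4, summed level 65.1 to 102 against 98.2 to 185 CPM) were also lower, with 0 passing, and their part was not tested.

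**Figure D4:**
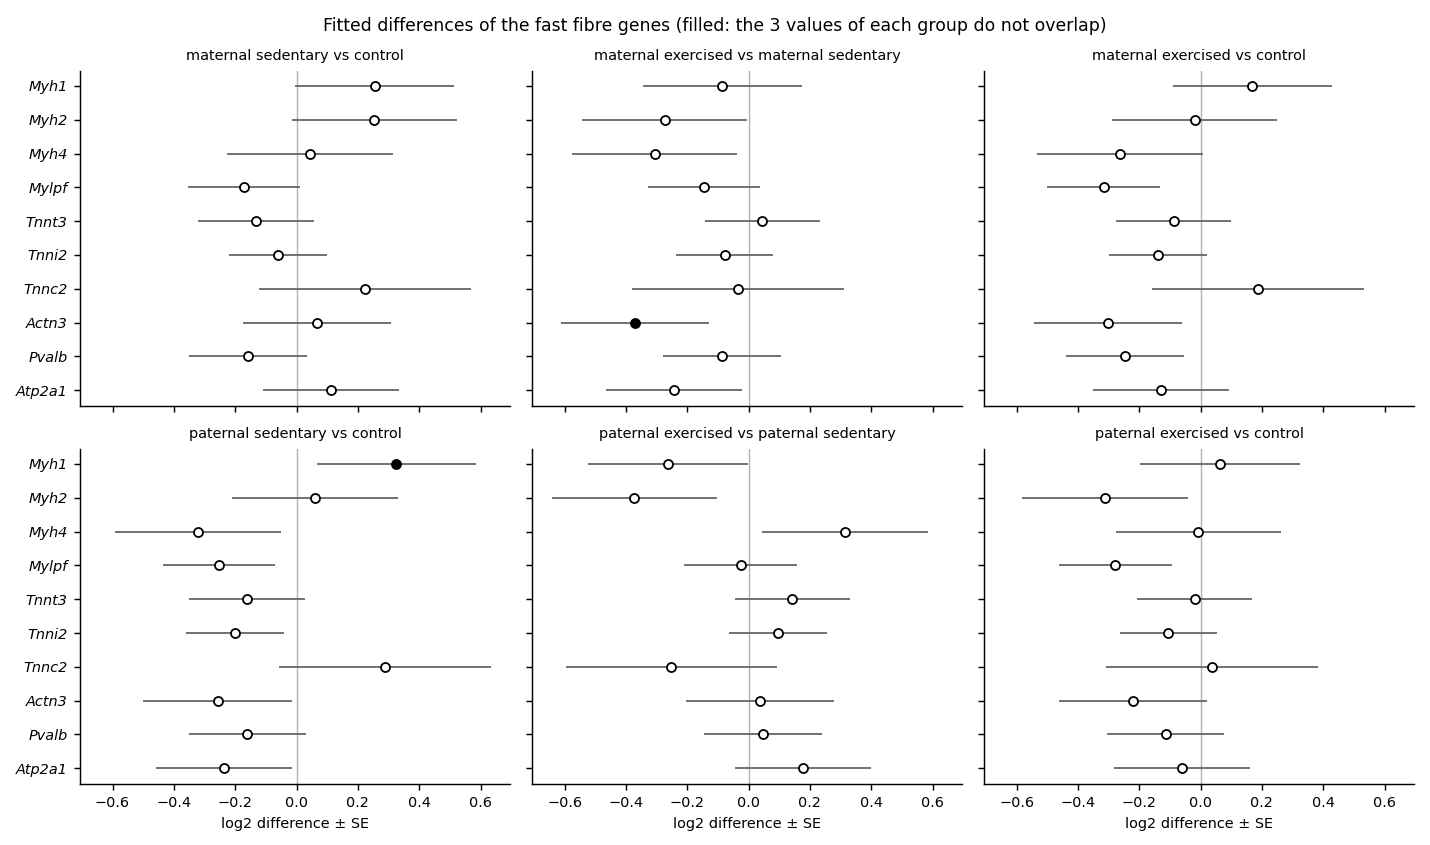
Fitted log2 difference of each fast fibre gene (x axis, log2 of normalized count + 1) with its standard error as a horizontal bar, in the 6 comparisons of groups. Filled points mark the 2 cases in which the 3 values of each group do not overlap, Actn3 at -0.37 and Myh1 at 0.33.

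The effect of the dam's exercise was also compared between the arms, as the maternal difference minus the paternal one. The value was -0.62 for Myh4 with an SE of 0.38, which had the lowest unadjusted p of the members (limma, adjusted p = 0.999), and the highest was 0.22 for Tnnc2. Of the 10 members 7 were below 0, with a median of -0.13 against 0.00 for all genes. Scaling by total reads in place of the size factors moved the median of all genes to 0.19 and that of the members to 0.06, so relative to all genes the members stayed below. Without maternal exercised replicate 1 the members' median was 0.02.

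The genes around the set were counted in the same fit, from lists chosen with earlier results of these data known. Of 9 further contractile and calcium handling genes enriched in fast fibres, such as Ryr1, Casq1 and Mylk2, none passed in any comparison. Their median difference was -0.19 in maternal exercised against maternal sedentary, with 0 of 9 means higher, and -0.21 in paternal sedentary against control, again with 0 of 9 higher. In maternal sedentary against control it was 0.03 with 5 of 9 higher, in maternal exercised against control -0.21 with 1 of 9, in paternal exercised against paternal sedentary 0.08 with 7 of 9, and in paternal exercised against control -0.07 with 2 of 9.

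Of the 12 slow fibre counterparts, such as Myh7 and the slow troponins, none passed either. In log2 means all 12 were higher than control in maternal sedentary (median 0.56), maternal exercised (0.19) and paternal sedentary offspring (0.47), and 1 of 12 was in paternal exercised offspring (-0.36). In paternal exercised against paternal sedentary offspring all 12 were lower, with a median of -1.05, and in maternal exercised against maternal sedentary 2 of 12 were higher, with a median of -0.33. The slow genes summed to 832 CPM in paternal exercised replicate 1 and 1331 in control replicate 1, against 2411 to 6161 in the other 13 libraries. Without this control library the medians against control were -0.04 in maternal sedentary (5 of 12 higher), -0.33 in maternal exercised (1 of 12), 0.00 in paternal sedentary (6 of 12) and -0.95 in paternal exercised offspring (0 of 12). Without paternal exercised replicate 1, the 12 genes were still all lower than in paternal sedentary offspring, with a median of -0.27 in place of -1.05, and the median against control turned to 0.25. Without both libraries that last median was -0.28. Myh7 was at 3842 normalized counts in paternal exercised replicate 1 and 8832 in control replicate 1, and between 14133 and 41403 in the other 13 libraries. In whole muscle, fewer slow fibres and less slow transcript per fibre cannot be told apart.

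Regulators of fibre type did not pass in any comparison. Of 12 genes linked to the fast programme, the medians lay between -0.09 and 0.08, with members going both ways. Unadjusted p under 0.05 in limma was counted among these 12, with the count over all 13499 genes in brackets. It was 4 in maternal exercised against maternal sedentary (1288), 4 in paternal exercised against control (1850) and 3 in paternal exercised against paternal sedentary (508). Against control it was 2 in maternal exercised (1183), 1 in maternal sedentary (546) and 0 in paternal sedentary (387). The lowest unadjusted p among the 12 was that of Myod1, a myogenic factor, with a log2 difference of -1.21 and an SE of 0.31 in paternal exercised against control (limma, adjusted p = 0.284). Sox6, which represses slow fibre genes, ranged from 2573 to 4200 normalized counts. Its log2 difference with the dam's exercise was 0.25 in the maternal arm (SE 0.12; limma, adjusted p = 0.516) and 0.26 in the paternal arm (SE 0.12; limma, adjusted p = 0.991). Of 10 genes linked to the slow or oxidative programme 9 were tested, with medians between -0.12 and 0.18. The developmental heavy chains were low: embryonic Myh3 had 99.6 to 352 normalized counts and perinatal Myh8 had 164 to 648. Of the 5 other heavy chain genes listed, 4 were tested and 0 passed.

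The members did not move as 1 block between animals. Across the 15 libraries, on log2 normalized counts, Myh4 went with Atp2a1 (r = 0.90), Tnni2 (0.90), Actn3 (0.89), Mylpf (0.81), Pvalb (0.73) and Tnnt3 (0.64), and less with Tnnc2 (0.31). Myh1 and Myh2 had negative r with each of these 7 genes and with Myh4. The values are descriptions, and all genes of a library share its size factor. Control replicate 1 was the highest library for 6 members, Myh4, Mylpf, Tnnt3, Tnni2, Tnnc2 and Pvalb. Paternal sedentary replicate 1 was the lowest for 4 and maternal exercised replicate 1 for 3. The same control library had the second lowest Myh1, Myh2 and Myh7.

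Among Myh1, Myh2, Myh4 and slow Myh7, all 6 pairs were tested, with permutation p-values adjusted over the 6. Myh2 and Myh7 varied together: r was 0.84 (permutation p = 0.00012, adjusted p = 0.00072) and Spearman's rho was 0.70 (p = 0.00429, adjusted p = 0.0257, n = 15). After removing the 2 libraries farthest from the median of Myh2, r was 0.64, and on deviations from the group means it was 0.79. This pair kept its call without any of the 15 libraries in turn, with r between 0.68 and 0.87.

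Myh1 and Myh2 had r = 0.70 (permutation p = 0.00481, adjusted p = 0.0144) and rho = 0.52 (p = 0.0478, adjusted p = 0.143), with r = 0.49 without the 2 farthest libraries and 0.73 within groups. Myh1 and Myh7 had r = 0.67 (permutation p = 0.00852, adjusted p = 0.0170) and rho = 0.46 (p = 0.0876, adjusted p = 0.156), with 0.56 and 0.66 on the same terms. Myh4 and Myh7 went in opposite directions, with r = -0.60 (permutation p = 0.0192, adjusted p = 0.0288) and rho = -0.41 (p = 0.130, adjusted p = 0.156), and -0.50 and -0.74 on the same terms. These 3 calls were lost without single libraries, with the same sign of r. Without paternal exercised replicate 1, r was 0.51 for Myh1 and Myh2 (adjusted p = 0.121), 0.42 for Myh1 and Myh7 (adjusted p = 0.215) and -0.56 for Myh4 and Myh7 (adjusted p = 0.121). Without control replicate 1 it was 0.60 for Myh1 and Myh7 (adjusted p = 0.121) and -0.49 for Myh4 and Myh7 (adjusted p = 0.136), and without control replicate 3 the latter was -0.57 (adjusted p = 0.0538).

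Myh4 did not pass against either of the other fast chains at the authors' scaling. With Myh1, r was -0.45 (permutation p = 0.0885, adjusted p = 0.106) and rho -0.44 (p = 0.104, adjusted p = 0.156), with -0.47 without the 2 farthest libraries and -0.44 within groups. With Myh2, r was -0.38 (permutation p = 0.160, adjusted p = 0.160) and rho -0.19 (p = 0.499, adjusted p = 0.499), with -0.27 and -0.52 on the same terms. Scaled by total reads, of which Myh4 alone is 7.76% to 12.9%, both passed, with r = -0.67 (adjusted p = 0.00869) and r = -0.59 (adjusted p = 0.0204).

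**Figure D5:**
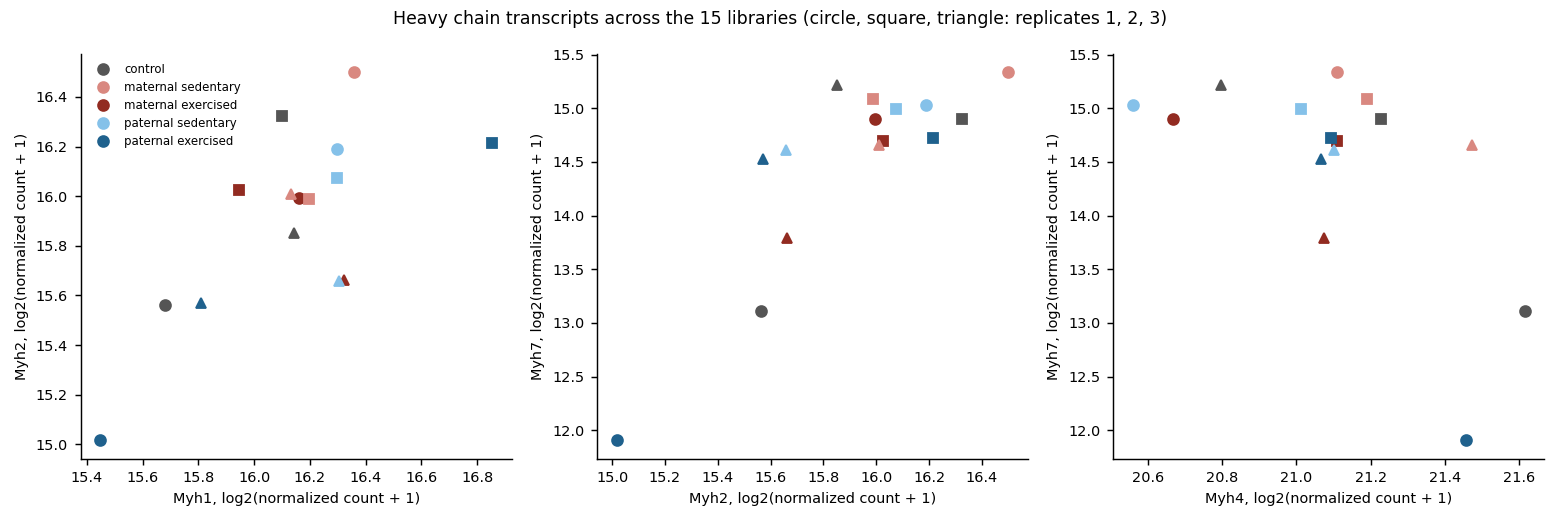
Log2(normalized count + 1) of Myh2 against Myh1, Myh7 against Myh2 and Myh7 against Myh4, with 1 point per library coloured by group and shaped by replicate. Paternal exercised replicate 1 lies lowest for Myh1, Myh2 and Myh7, and r is 0.70, 0.84 and -0.60 from left to right.

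The genes most like each heavy chain were read from the 10382 genes with a mean normalized count of at least 50, by Pearson r over the 15 libraries. For Myh4 they were Tmod1 (0.96), a cap of the thin filament, Mybpc2 (0.94), the fast myosin-binding protein C, Pygm (0.94), the glycogen phosphorylase of muscle, Pkm (0.92), a pyruvate kinase, and Cacna1s (0.92), the voltage sensor of the muscle membrane. For Myh2 they were Evc (0.93), Myom3 (0.90), a protein of the M-band, Mb (0.89), the oxygen carrier myoglobin, Dgat2 (0.89), an enzyme of triglyceride synthesis, and Myl12a (0.88). For Myh1 they were P3h4 (0.86), Asap2 (0.83), Arpp21 (0.81), St3gal5 (0.80) and Hadha (0.78), an enzyme of mitochondrial fatty acid oxidation. These r are the highest of many and are given as descriptions without a test.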

How the data were processed

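Per the labels' protocols, total RNA was extracted with TRIzol, depleted of ribosomal RNA with a stranded kit and sequenced as 100-base single reads. Build mm10, STAR 2.5.2b, DESeq2 1.11.8 and featureCounts 1.5.2 are listed, per the submitters' processing notes. The authors deposited a signal per gene and library, which the values show to be read counts divided by a size factor. Dividing each column by its smallest value gave whole reads (tolerance 0.001 of a read) for 100% of values. Of 50686 identifiers, 99.6% matched GENCODE M21 (GRCm38), the source of names, lengths and coordinates.

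Groups came from the labels; replicate numbers follow accession order. Each normalized count was raised by a pseudocount of 1 and log2-transformed, and genes averaging at least 10 were tested in 1 limma fit over all 15 libraries (limma 3.58.1, R 4.3.3; moderated statistics with an intensity trend). Adjustment was Benjamini-Hochberg over all genes, threshold 0.05. Such log2 differences understate changes of low genes. Ratios of heavy chains used an exact permutation test, correlations a permutation test with 100000 resamples, both two-sided, in Python 3.11.15 with scipy 1.17.1. The scripts were tested on simulated data. Alternatives were other pseudocounts, filters and scalings, edgeR 4.0.16, DESeq2 1.42.0 and limma voom on recovered reads, the first part of the sample code as a covariate, and leaving out libraries. The members and lists were chosen with earlier results of these data known. All 10 members are named. Values of every library are given for the heavy chains, and a difference with its SE for members that pass or whose values do not overlap between compared groups; other members are given by range, and the few further values of Actn3, Myh4 and Tnnc2 were chosen after they were seen. From other lists Myh7, Myh3, Myh8 and Sox6 are given by range, 1 further gene is not reported here, and likeness by the 5 highest r; Myod1, the further values of Sox6 and other genes named as examples were chosen after their values were seen.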

Additional observations from a re-analysis of the deposited data

How the results depend on the processing

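No paired analysis was possible because the labels carry no replicate number or shared animal, and the numbers used here only follow accession order. The count of members called was 0 in each of the 8 tests under every alternative that could be fitted (the sample code as a covariate could not be fitted for both maternal groups against control or over the 5 groups), and the p of the 3 heavy chain ratios stayed between 0.149 and 0.906. Differences of single members were followed for 2 cases. Actn3 kept its sign everywhere. With the first part of the sample code as a covariate, its difference rests on maternal exercised replicate 3 alone. Maternal exercised replicates 1 and 2 carried codes (F3 and F5) that no other library had. Myh1 in paternal sedentary against control turned to -0.95 only with that covariate. Those groups share no code, so that estimate is indirect. The alternatives for the correlations and for the slow fibre list were chosen after seeing the data. Leaving out 1 library in turn gave r of 0.51 to 0.75 for Myh1 and Myh2, -0.56 to -0.33 for Myh1 and Myh4, 0.42 to 0.79 for Myh1 and Myh7, -0.44 to -0.22 for Myh2 and Myh4, 0.68 to 0.87 for Myh2 and Myh7 and -0.66 to -0.49 for Myh4 and Myh7. Without paternal exercised replicate 2, Myh1 and Myh4 passed (r = -0.56, adjusted p = 0.0448). Total read scaling gave -0.67 for Myh1 and Myh4 and -0.59 for Myh2 and Myh4, now past the threshold; the cause was not tested. With 35 to 113 reads per library, Tnnc2 is the member whose precision counting limits most.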
